A study of Mus musculus with 6 samples.

Results

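Natural killer (NK) cells from mouse liver were examined for 9 genes of the phosphoinositide 3-kinase (PI3K) pathway. These are the inhibitor Pik3ip1, the phosphatases Inpp4b and Inpp5d, the PI3K subunits Pik3cd and Pik3r1, the kinases Akt1 and Sgk1, and the transcription factors Foxo1 and Foxo3. They were chosen by name, and all 9 were found, each in a single row, among the 55414 genes of the deposited table. The series holds 6 libraries of liver NK cells from wild-type (WT) mice, all taken on day 3. The control group is 3 libraries from PBS-treated mice. The treated group is 3 libraries from mice that received 200 mg per kg of metformin, a drug used to lower blood glucose, over 3 days. The sources used here do not give strain, age, sex or the gate by which NK cells were isolated. They do not say that replicates are separate animals either, so the p-values reflect only the spread among these libraries, which may be technical.

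PI3K phosphorylates a membrane lipid downstream of activating and cytokine receptors, and the product, PIP3, recruits the kinase AKT. SGK kinases are relatives of AKT that mTORC2 activates, and both AKT and SGK phosphorylate FOXO factors and so keep them out of the nucleus. Phosphatases such as SHIP1 (the product of Inpp5d) and INPP4B remove phosphates from these lipids, and PIK3IP1 is a membrane protein that binds and inhibits the PI3K catalytic subunit. In NK cells the delta isoform of PI3K is known to serve development and effector function, and FOXO1 is known to control homing receptors and maturation.

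The stretches before annotated transcription starts of 3 members are shown because Pik3ip1 and Sgk1 had the smallest p among the members higher and lower with metformin, and Sgk1 and Akt1 held the motifs searched for. Each sequence is the 250 bases before a start, 5′ to 3′ on the gene's own strand, from RefSeq on GRCm38.p6. Capitals mark a match to the glucocorticoid response element (AGAACA, any 3 bases, TGTTCT) or, in Akt1, to the FOXO core GTAAACA, searched on both strands.
Pik3ip1, chr11:3330481-3330730, plus strand: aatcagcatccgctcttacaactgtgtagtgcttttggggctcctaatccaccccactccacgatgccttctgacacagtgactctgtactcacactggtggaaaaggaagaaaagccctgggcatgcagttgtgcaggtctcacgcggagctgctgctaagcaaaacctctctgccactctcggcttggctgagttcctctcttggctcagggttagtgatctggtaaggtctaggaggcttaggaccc
Sgk1, chr10:21993640-21993889, plus strand: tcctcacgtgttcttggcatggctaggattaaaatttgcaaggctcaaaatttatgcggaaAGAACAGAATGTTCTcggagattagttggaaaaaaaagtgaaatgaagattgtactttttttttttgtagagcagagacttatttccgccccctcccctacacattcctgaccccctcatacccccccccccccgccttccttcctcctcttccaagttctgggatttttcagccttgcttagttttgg
Akt1, chr12:112674885-112675134, minus strand: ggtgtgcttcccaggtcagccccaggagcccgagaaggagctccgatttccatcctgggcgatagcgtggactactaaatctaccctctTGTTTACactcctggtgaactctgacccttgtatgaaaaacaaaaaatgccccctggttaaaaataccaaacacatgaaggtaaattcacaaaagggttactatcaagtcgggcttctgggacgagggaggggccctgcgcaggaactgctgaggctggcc

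The window of Sgk1 held the full glucocorticoid response element 189 bases before that start, and only 3 of 32851 such windows of all genes (0.00913%) held it. Sgk1 has 6 annotated windows, and a table of values per gene does not show which start the cells used. The FOXO core stood 161 bases before a start of Akt1 and in 1 of the 18 windows of the members, against 3.17% of all windows. Pik3ip1 has a single window, with neither motif. The 2 matches are in different genes and so do not overlap, and a match is a run of letters, not a measured binding site. Of 26 listed FOXO target genes 21 have windows, and 2 of their 25 windows held the core, in Bcl2l11 and Btg1.

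The libraries held 22152167 to 30161214 estimated reads. Metformin 3 stood apart: its mean correlation with the other libraries was 0.956, against 0.964 to 0.968 in the other 5, and its mitochondrial share was 0.720%, against 0.429% to 0.515%. Long genes read low in it, with a Spearman correlation across genes between length and relative expression of -0.422. Metformin 1 was negative too, at -0.110, while metformin 2, at 0.131, lay within the PBS range of 0.0519 to 0.327. No PBS library was negative, so the length trend differed partly by group. Leaving out metformin 3 does not take away the low value of metformin 1. The 10 listed NK cell genes summed to 20430 to 25170 CPM per library (reads scaled to library size with edgeR's TMM factors). Gzma was the most abundant of the 10, and such a sum does not separate NK cells from related cell types.

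Metformin libraries had more Pik3ip1 and Inpp4b RNA and less Sgk1 RNA than PBS libraries, with no overlap between the groups. Pik3ip1 was 1.56 times as high, Inpp4b 1.497 times as high and Sgk1 0.632 times as high, as ratios of mean CPM. Akt1 was 0.829 times as high and did not overlap either, by a narrow margin. Inpp5d, Pik3cd, Pik3r1, Foxo1 and Foxo3 overlapped between the groups. None of the 9 passed edgeR's quasi-likelihood test adjusted over all 15527 genes, by which 0.0% of genes were called, and the smallest adjusted p of any gene was 0.125. At an unadjusted p under 0.05 edgeR gave 4 of the 9 members and 1610 of all genes (10.4%): 2 members were higher, against 5.29% of all genes, and 2 lower, against 5.08%. The groups did not overlap in the same 4 members, against 19.1% of all genes (9.49% higher and 9.63% lower). DESeq2 called 3 of the 9, Pik3ip1, Inpp4b and Sgk1, and 299 genes in all (1.93%), with 1748 at an unadjusted p under 0.05. The other tool, limma-voom, called 0 genes and gave 1679 at an unadjusted p under 0.05. The members were named with earlier results of these data known, so their counts are a description.

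**Figure D1:**
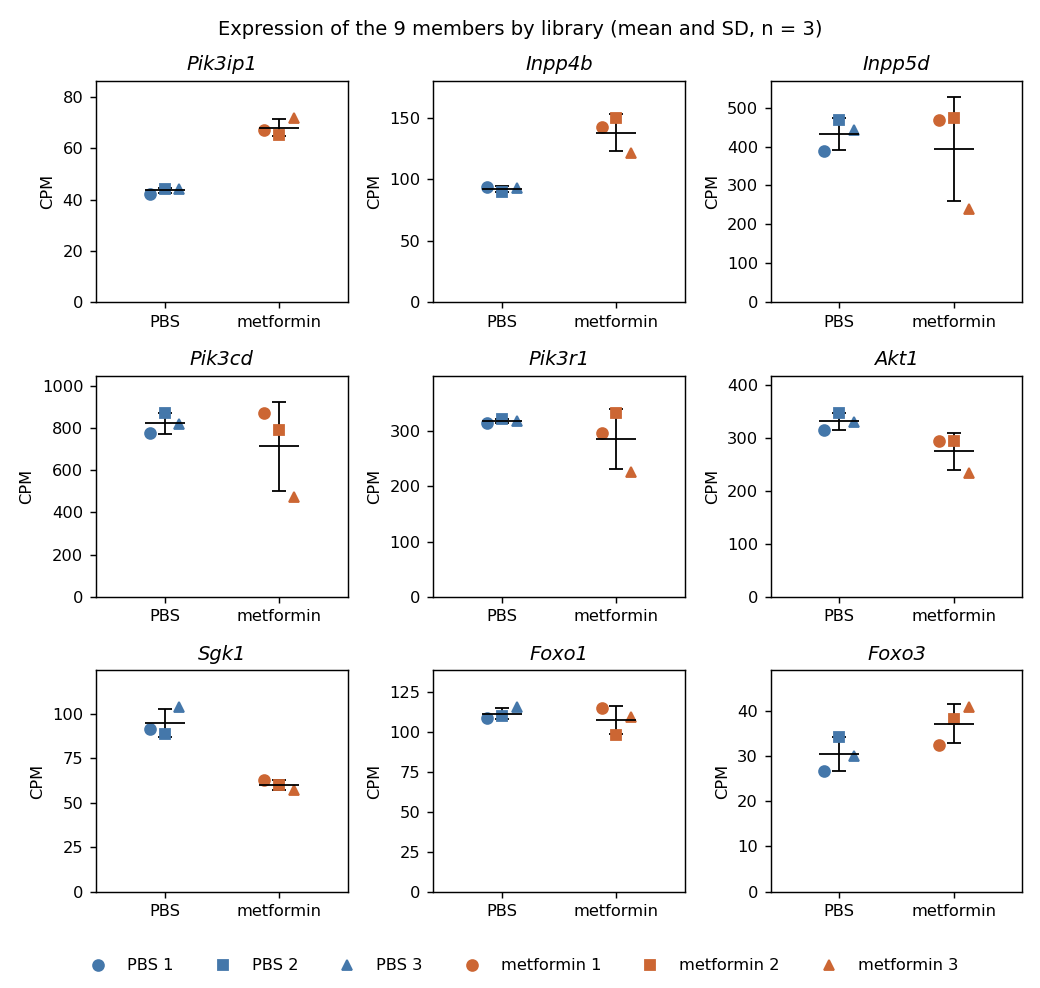
CPM of the 9 members in each library (points, shaped by replicate), with the mean and SD of each group of 3; each axis starts at 0. The metformin points of Pik3ip1 and Inpp4b lie above all PBS points and those of Sgk1 and Akt1 below them, and metformin 3 is the lowest point for Inpp5d, Pik3cd, Pik3r1 and Akt1.

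Compared per length, in TPM (the deposited values scaled for gene length and depth), Pik3cd was the most abundant member and Foxo3 the least. In PBS libraries Pik3cd averaged 281 ± 19.9 TPM and Akt1 211 ± 16.2 TPM (SD, n = 3 each). Pik3r1 followed at 161 ± 14.3 TPM and Inpp5d at 153 ± 13.2 TPM, a pair that did not differ beyond the spread. Sgk1 averaged 69.0 ± 8.39 TPM and Inpp4b 66.7 ± 2.72 TPM, and these did not differ beyond it either. Below them lay Pik3ip1 at 33.6 ± 2.93 TPM, Foxo1 at 19.4 ± 1.23 TPM and Foxo3 at 7.61 ± 1.37 TPM. With metformin the levels were 230 ± 69.6 TPM for Pik3cd, 162 ± 27.6 TPM for Akt1, 153 ± 59.2 TPM for Inpp5d and 143 ± 17.9 TPM for Pik3r1. These overlapped one another across libraries, but Pik3cd was at rank 1 within each metformin library. Inpp4b followed at 99.5 ± 13.9 TPM, Pik3ip1 at 47.2 ± 2.06 TPM, Sgk1 at 40.7 ± 6.18 TPM, Foxo1 at 17.4 ± 1.38 TPM and Foxo3 at 8.27 ± 0.316 TPM.

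**Figure D2:**
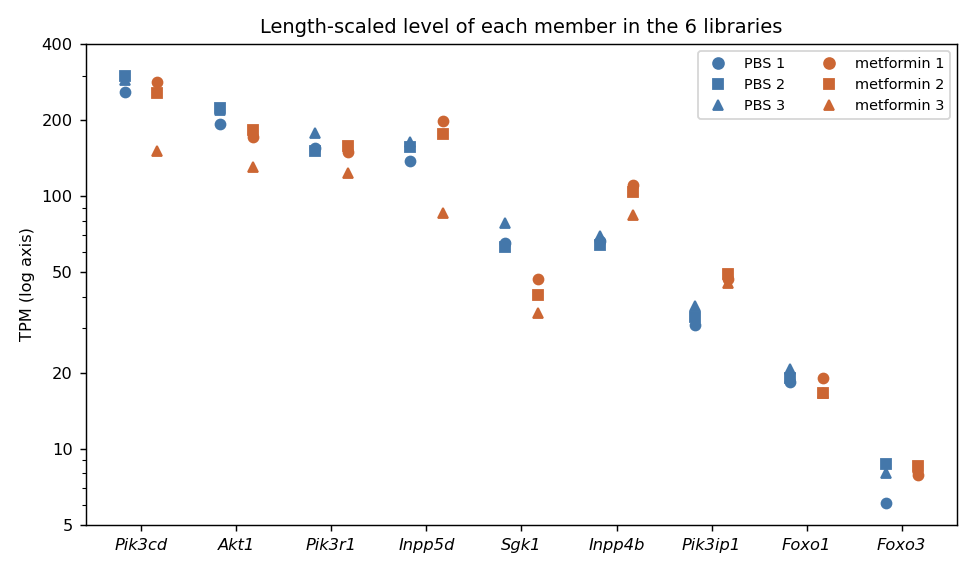
TPM of each member in the 6 libraries on a log axis, ordered by the PBS mean. Sgk1 lies above Pik3ip1 in every PBS library and below it in every metformin library.

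Sgk1 was at rank 6 of 9 in PBS 1 and 2, just below Inpp4b, and at rank 5 in PBS 3, and it was at rank 7 in each metformin library. The ratio of Pik3ip1 to Sgk1 in TPM, which needs no scaling between libraries, was 0.475, 0.524 and 0.468 across PBS 1 to 3. Across metformin 1 to 3 it was 1.00, 1.21 and 1.31. In metformin 1 both genes stood at nearly the same level, 47.0 TPM for Pik3ip1 and 46.9 TPM for Sgk1. This pair was chosen after its values were seen and was not tested.

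Among the brakes, Pik3ip1 (ENSMUSG00000034614.15, chromosome 11, 3280401 to 3292971, plus strand, in the table's own coordinates) had 42.3, 44.3 and 44.1 CPM in PBS 1, 2 and 3, from 1079 to 1339 reads. In metformin 1, 2 and 3 it had 67.1, 65.2 and 71.8 CPM. All 3 metformin libraries were higher, and the gap between the groups was wider than the range within either. The log2 fold change was 0.64 (SE 0.093, 95% confidence interval 0.43 to 0.86), with an unadjusted p of 0.000118 and an adjusted p of 0.168 in edgeR, the sixth smallest p of all genes. Over 18 other settings the log2 fold change lay between 0.48, on TPM, and 0.69, and the adjusted p between 1.75e-05 in DESeq2 and 0.576 with PBS 2 left out. The overlapping antisense gene Gm12592 averaged 1.46 CPM, 2.62% of the level of Pik3ip1. The sources used here do not say whether counting used strand.

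Inpp4b (ENSMUSG00000037940.18, chromosome 8, 82069185 to 82854543) encodes the phosphatase that takes the 4-phosphate from PI(3,4)P2, the lipid that SHIP1 makes from PIP3. It had 93.6, 89.5 and 93.3 CPM in the PBS libraries and 143, 150 and 121 CPM in metformin 1, 2 and 3. The PBS libraries lay close together, and metformin 3 was the lowest of the treated libraries but above all of them. Inpp4b had a log2 fold change of 0.58 (SE 0.11, interval 0.34 to 0.83; edgeR unadjusted p of 0.00057, adjusted p = 0.197), and the adjusted p was 0.000633 in DESeq2. Without metformin 3 it was 0.66 (edgeR adjusted p = 0.0501). With the trend on gene length removed it was 0.73 (edgeR adjusted p = 0.0564); Inpp4b, at 8067 bases, is among the long members. Over all settings its adjusted p reached at most 0.576.

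Inpp5d, which encodes SHIP1, the phosphatase that inhibitory receptors recruit, had 388, 468 and 442 CPM in the PBS libraries and 468, 474 and 239 CPM in metformin 1, 2 and 3. The first 2 metformin libraries lay at the top of the PBS range or just above it, and metformin 3 far below every other library. Its log2 fold change was -0.14 (SE 0.24, interval -0.69 to 0.42), and it turned to 0.11 (SE 0.087) without metformin 3. As a share of the TPM of Inpp5d, Inppl1, Inpp4a and Inpp4b together, Inpp4b was 28.2% ± 1.56 (SD, n = 3) in PBS libraries and 33.6%, 34.8% and 45.7% in metformin 1, 2 and 3, while Inpp5d was 62.3% to 66.8% and 60.1%, 58.7% and 46.8%.

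Of the PI3K subunits, Pik3cd, the catalytic delta isoform of leukocytes, had 774, 869 and 819 CPM with PBS and 872, 791 and 474 CPM with metformin. Pik3r1, the regulatory subunit that stabilizes the catalytic one, had 315, 322 and 318 CPM with PBS and 296, 333 and 226 CPM with metformin. For both, metformin 1 and 2 lay close to the PBS libraries and metformin 3 lay below all others. The log2 fold change was -0.20 for Pik3cd (SE 0.21, interval -0.68 to 0.27) and -0.16 for Pik3r1 (SE 0.14, interval -0.48 to 0.17). Without metformin 3 they were 0.012 (SE 0.077) and -0.023 (SE 0.068). With the length trend removed they were -0.11 and -0.019.

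Relative to metformin 1 and 2, metformin 3 held 50.7% of the CPM of Inpp5d, 56.9% of that of Pik3cd, 71.9% of that of Pik3r1, 79.8% of that of Akt1 and 82.8% of that of Inpp4b. It held 93.0% of the CPM of Sgk1, 103% of that of Foxo1, 109% of that of Pik3ip1 and 116% of that of Foxo3, and over all genes tested 18.8% were below 70%, among them 2 members. The part of RNA quality in these values was not tested.

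**Figure D3:**
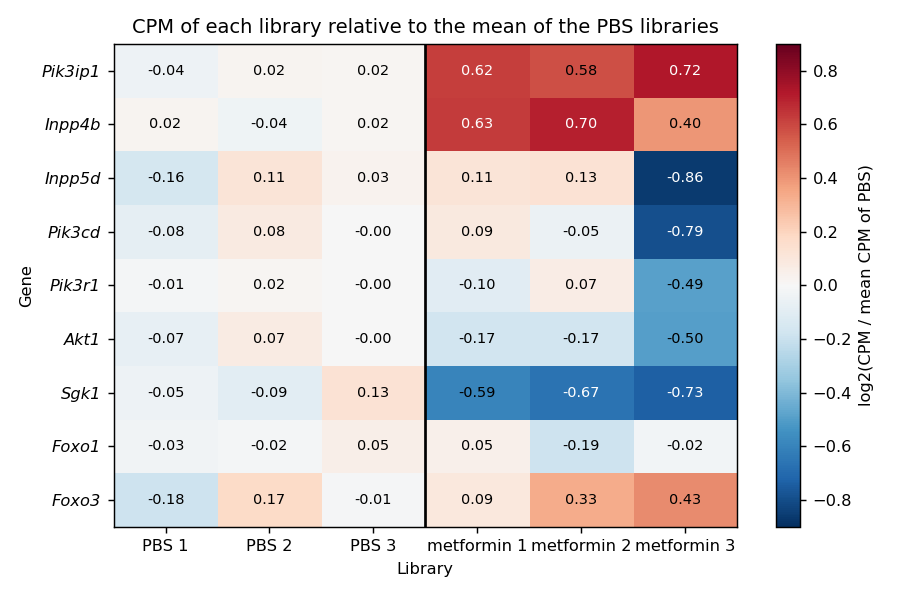
The log2 ratio of CPM in each library to the mean of the PBS libraries, for the 9 members (rows) and 6 libraries (columns), with the value in each cell. Pik3ip1, Inpp4b and Foxo3 are above 0 and Akt1 and Sgk1 below 0 in all 3 metformin libraries, while the low cells of Inpp5d (-0.86) and Pik3cd (-0.79) stand in metformin 3 alone.

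Of the kinases, Sgk1 (ENSMUSG00000019970.16, chromosome 10, 21758083 to 21875802, plus strand), whose transcription is known to be induced by glucocorticoids, had 91.7, 89.0 and 104 CPM with PBS. With metformin it had 63.0, 59.8 and 57.1 CPM. Every metformin library lay below every PBS library, and the gap was wider than the range within either group. Sgk1 had a log2 fold change of -0.66 (SE 0.10, interval -0.90 to -0.43; edgeR unadjusted p of 0.000183, adjusted p = 0.168). It was -0.77 to -0.60 over the other settings, -0.64 without metformin 3 and -0.64 with the length trend removed. The adjusted p ranged from 2.96e-05 in DESeq2 to 0.576.

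Akt1, the ubiquitous AKT kinase, had 315, 348 and 331 CPM with PBS and 294, 295 and 235 CPM with metformin. Metformin 1 and 2 were close below the lowest PBS library, and metformin 3 was lower. Akt1 had a log2 fold change of -0.27 (SE 0.11, interval -0.53 to -0.0076), with an unadjusted p of 0.0452 and an adjusted p of 0.473 in edgeR. Without metformin 3 it was -0.18. Leaving out PBS 1, 2 or 3 put the unadjusted p of Akt1 at 0.056, 0.138 and 0.0957, and its adjusted p was 0.306 to 0.81 over all other settings.

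**Figure D4:**
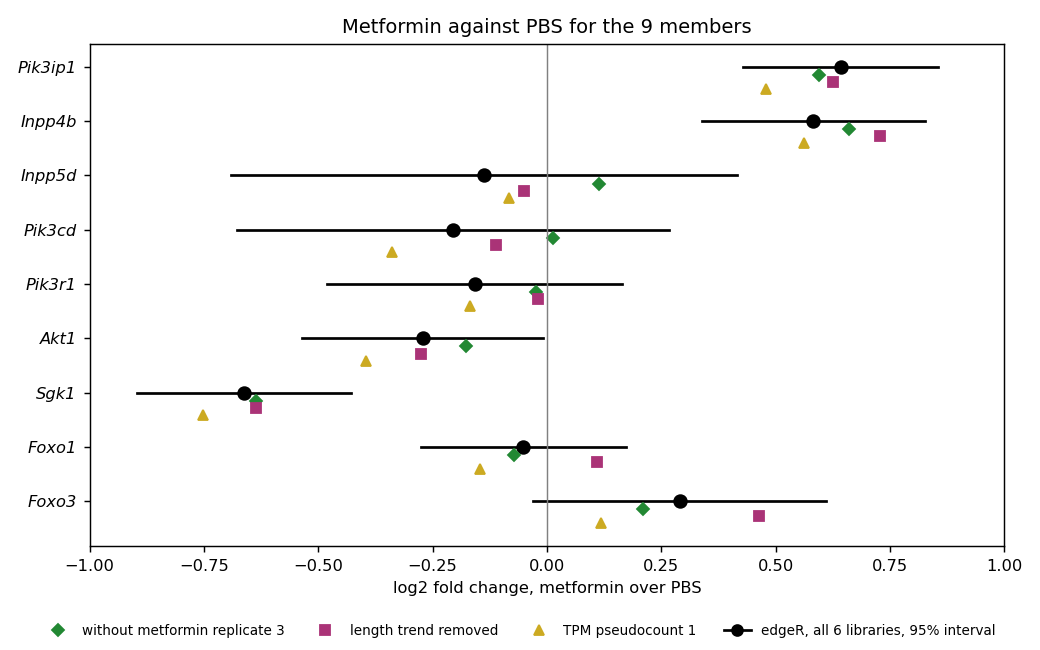
The log2 fold change of each member, metformin over PBS, with its 95% confidence interval in edgeR (black) and the value without metformin 3, with the length trend removed, and on log2(TPM + 1) (colours). The intervals of Pik3ip1, Inpp4b and Sgk1 lie clear of 0, and that of Akt1 ends just below it, at -0.0076. The 3 other values of each of these genes lie on the same side. The values of Inpp5d and Pik3cd turn sign without metformin 3, and that of Foxo1 turns with the length trend removed.

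Of the transcription factors, Foxo1 had 109, 110 and 115 CPM with PBS and 115, 97.7 and 109 CPM with metformin, so the groups overlapped. Its log2 fold change of -0.051 (SE 0.098) had an interval of -0.28 to 0.17, and its sign turned with the length trend removed (0.11) and without metformin 2 (0.010). Foxo3 had 26.7, 34.2 and 30.03 CPM with PBS and 32.3, 38.1 and 40.8 CPM with metformin, from 725 to 930 reads. Metformin 2 and 3 were above all PBS libraries and metformin 1 was not. Foxo3 had a log2 fold change of 0.29 (SE 0.14, interval -0.031 to 0.61; edgeR unadjusted p of 0.0709, adjusted p = 0.508). It was 0.12 on log2(TPM + 1) and 0.46 with the length trend removed, where the unadjusted p was 0.0298. Foxo1 was the larger FOXO transcript in each library, with 66.9% to 72.8% of the TPM of Foxo1, Foxo3, Foxo4 and Foxo6 in PBS libraries and 63.2% to 66.7% in metformin libraries.

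The relatives of the members placed them within their families. Pik3cd held 69.3% to 73.7% of the TPM of the 4 catalytic subunits Pik3ca, Pik3cb, Pik3cd and Pik3cg with PBS and 73.8% to 77.0% with metformin. Pik3cb, the beta catalytic subunit, held 5.95% to 7.45% with PBS and 4.19% to 4.99% with metformin. Pik3cb itself had 101, 83.4 and 88.3 CPM with PBS and 57.7, 60.5 and 38.3 CPM with metformin, with no overlap, and its difference was -0.80 on the log2 scale (SE 0.18) and -0.63 without metformin 3. Its adjusted p was 0.261 in edgeR and 0.00339 in DESeq2. Pik3ca and Pik3cg had log2 fold changes of -0.30 (SE 0.18) and -0.29 (SE 0.23), and -0.11 and -0.044 without metformin 3. Of the summed TPM of Akt1 and Akt2, Akt1 held 63.4% to 67.9% over the 6 libraries and Akt2 32.1% to 36.6%. Akt2 had a log2 fold change of -0.16 (SE 0.11). Sgk1 held 79.5% to 86.4% of the TPM of the SGK genes over all libraries. Sgk3 was lower with metformin too, with 22.9, 24.9 and 21.8 CPM against 16.7, 19.1 and 11.9 CPM (log2 fold change -0.54, SE 0.19; edgeR adjusted p = 0.42; -0.38 without metformin 3), so the share of Sgk1 among them overlapped between the groups. Sgk2 and Foxo6 were too low to be tested, at mean levels of 0.167 and 0.0712 TPM over the 6 libraries. Foxo4 averaged 0.908 TPM, with a log2 fold change of 0.75 (SE 0.46).

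**Figure D5:**
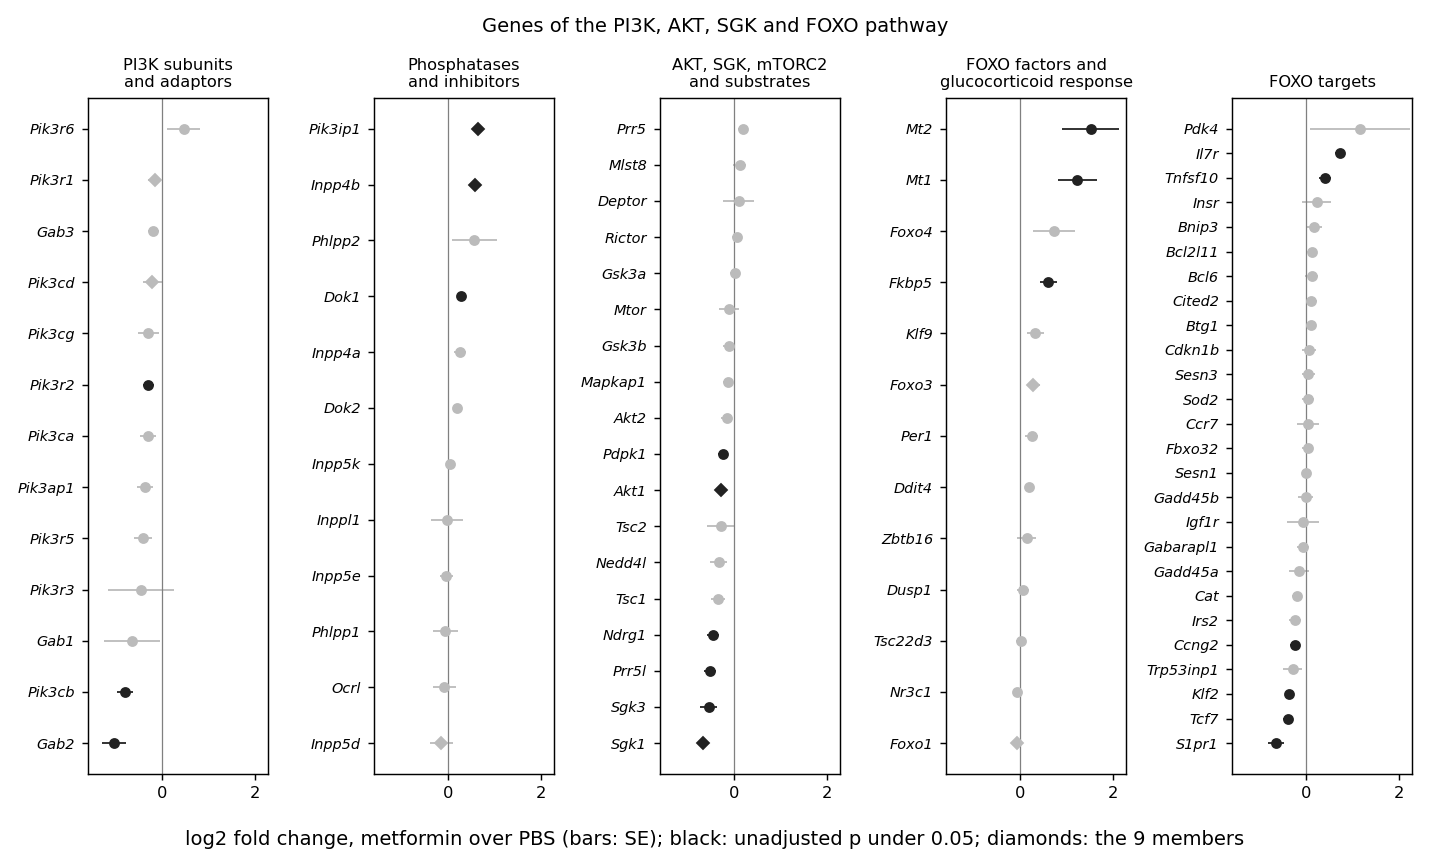
The log2 fold change (points) and SE (bars) of each tested gene of the 6 lists, in 5 panels, with the 9 members as diamonds and genes with an unadjusted p under 0.05 in black. No gene of the AKT, SGK and mTORC2 panel or of the PI3K panel is black on the higher side, and none of the phosphatases and inhibitors is black on the lower side. Over all genes 5.29% are higher and 5.08% lower at that p, so a list this short can hold 0 genes on a side.

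The wider pathway was read from 6 lists of 84 genes, 82 of them tested, that include the members. At an unadjusted p under 0.05 edgeR gave 21 of them, 8 higher and 13 lower, that is 25.6% against 10.4% of all genes, and 0 passed over all genes. With a library left out the 21 became 16 to 26. The lists were written with earlier results of these data known, and their counts are a description. The median log2 fold change of the 82 genes was -0.021, against 0.0053 over all genes.

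Of 13 PI3K subunits and adaptors 3 were lower at that threshold and 0 higher, against 5.08% and 5.29% of all genes. The 3 were Pik3cb, the regulatory subunit Pik3r2 and the adaptor Gab2. Gab2, a docking protein that brings PI3K to receptors, averaged 22.3 ± 1.56 CPM in PBS libraries, against 10.95 ± 4.41 CPM in metformin libraries. Pik3r2 averaged 39.4 ± 0.981 and 32.2 ± 3.24 CPM (log2 fold change -0.29, and -0.46 on log2(TPM + 1)). The median of this list was -0.30, and -0.12 without metformin 3, when 4 were lower; the count was 2 without PBS 1, 2 or 3, 5 without metformin 1 and 6 without metformin 2.

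Of 12 phosphatases and inhibitors 3 were higher and 0 lower, against 5.29% and 5.08% of all genes. The 3 were Pik3ip1, Inpp4b and Dok1, an adaptor that restrains receptor signalling. Dok1 averaged 43.9 ± 2.20 CPM in PBS libraries, against 53.4 ± 1.93 CPM in metformin libraries (log2 fold change 0.28, SE 0.095). On log2(TPM + 1) the difference of Dok1 was 0.12, with an unadjusted p of 0.255 in limma, and the count was 2. Pik3ip1 and Inpp4b are members, and without the members the list median was 0.050. With them it was 0.13, with 0.11 to 0.19 when a library was left out, and -0.0072 on log2(TPM + 1). The count of 3 became 2 without PBS 1, PBS 2 or metformin 1 and 4 without PBS 3 or metformin 3.

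Of 18 tested genes of the AKT, SGK and mTORC2 list 6 were lower and 0 higher, against 5.08% and 5.29% of all genes. The 6 were Sgk1, Sgk3, Akt1, Prr5l, Ndrg1 and Pdpk1, the last of which was named after its value was seen. Prr5l, which encodes a partner of mTORC2, had 112, 118 and 112 CPM with PBS and 76.8, 94.3 and 68.5 CPM with metformin (log2 fold change -0.51, SE 0.13; edgeR adjusted p = 0.299). Ndrg1, whose protein is a known substrate of SGK1, had 36.6, 30.8 and 33.9 CPM and 22.1, 25.3 and 27.0 CPM (-0.44, SE 0.13; edgeR adjusted p = 0.341). The groups overlapped for neither. Rictor, an mTORC2 subunit gene named outside the rule, averaged 116 ± 6.45 and 122 ± 9.89 CPM (log2 fold change 0.071, SE 0.10). The list median was -0.20, and -0.089 with the length trend removed. Without PBS 2 the counts were 3 lower and 1 higher.

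Of 26 listed FOXO target genes 2 were higher and 4 lower, against 5.29% and 5.08% of all genes, so the 2 higher genes were near that share. The list median was 0.041, or -0.079 without metformin 3 and -0.068 on log2(TPM + 1). Il7r, the interleukin-7 receptor, had 46.6, 42.9 and 49.7 CPM with PBS and 79.4, 69.3 and 84.0 CPM with metformin. The other higher gene was Tnfsf10, which encodes the death ligand TRAIL, with 100.4, 115 and 99.6 CPM and 130, 163 and 128 CPM. In TPM the groups of Tnfsf10 overlapped, with 35.7 in PBS 2 and 34.95 in metformin 3 (limma unadjusted p of 0.0614), and the list counts were 1 higher and 5 lower. Klf2 and S1pr1, a transcription factor and a receptor of lymphocyte egress, averaged 544 and 94.3 CPM in PBS libraries, against 425 and 60.4 CPM in metformin libraries. Tcf7 and Ccng2 were the other lower genes, with log2 fold changes of -0.39 (SE 0.099) and -0.24 (SE 0.090). With the length trend removed Ccng2 was at -0.14 (edgeR unadjusted p of 0.0956). Of these 6 genes, Il7r is also on the list of liver ILC1 markers below, and Klf2 and S1pr1 on that of conventional NK markers.

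Glucocorticoid response genes were read beside Sgk1, of which 1 of 6 annotated windows held a match to the response element. Of 10 genes 3 were higher and 0 lower, against 5.29% and 5.08% of all genes, while Sgk1 was lower. The list median was 0.23, and 0.125 on log2(TPM + 1). In CPM the groups did not overlap in 5 higher genes and 1 lower gene, against 9.49% and 9.63% of all genes. Fkbp5, a standard glucocorticoid target, had 280, 275 and 225 CPM with PBS and 407, 489 and 294 CPM with metformin (log2 fold change 0.61, SE 0.18; edgeR adjusted p = 0.361). In TPM the groups of Fkbp5 overlapped, with 108 in metformin 3 and 114 in PBS 2, and the log2 fold change was 0.47 (limma unadjusted p of 0.0594). Mt1 and Mt2, the metallothioneins, averaged 4.35 and 0.579 CPM in PBS libraries, against 10.3 and 1.68 CPM in metformin libraries. Without metformin 3 neither had an unadjusted p under 0.05 (0.075 for Mt1 and 0.108 for Mt2), and the count was 1. Mt2 was near the floor, with 5 to 30 reads per PBS library and 31 to 49 per metformin library. The log2 fold change of Mt2 was 1.53, with 2.36 without PBS 1 and 1.13 without PBS 2. Its edgeR unadjusted p was 0.00552 without PBS 1, but 0.0549 to 0.108 when any other library was left out. The list count was 2 without PBS 2, PBS 3, metformin 1 or metformin 2. Tsc22d3 (GILZ), another standard target, and Nr3c1, the glucocorticoid receptor, were named after their values were seen. Tsc22d3 averaged 444 ± 7.28 and 449 ± 48.9 CPM (log2 fold change 0.017, SE 0.10). Nr3c1 averaged 181 ± 2.61 and 175 ± 6.87 CPM. The part of glucocorticoids in these values was not tested.

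Markers of liver type 1 innate lymphoid cells (ILC1), tissue-resident relatives of NK cells, differed between the groups as well. All 13 listed ILC1 markers, none of them a member here, were higher at an unadjusted p under 0.05 in edgeR, against 5.29% of all genes. Their sum was 2060 to 2325 CPM with PBS and 2973 to 3617 CPM with metformin. Of 12 conventional NK markers 11 were lower, against 5.08% of all genes, and their sum was 4558 to 4589 CPM and 2803 to 3588 CPM. Of 12 genes of dividing cells 11 were lower, with sums of 539, 317 and 302 CPM in PBS 1, 2 and 3 and 184 to 229 CPM with metformin. The log2 difference of that sum was -0.95, and -0.63 without PBS 1. For each of these 3 sums the two-sided exact permutation p was 0.1, the smallest that 3 against 3 libraries can give, and 0.333 when adjusted over the 10 marker sums tested. The marker lists too were written with earlier results of these data known, so these counts and p-values are a description. T cell markers summed to 121 to 210 CPM with PBS and 169 to 384 CPM with metformin, and hepatocyte markers to 82.9 to 215 CPM and 90.6 to 391 CPM, both with overlap. The T cell difference was 0.71 on the log2 scale and 0.37 without metformin 1. Of the 10 T cell genes 2, Cd3d and Cd3e, were higher at an unadjusted p under 0.05 in edgeR, against 5.29% of all genes. Of 10 tested monocyte and macrophage markers 5 were higher (Marco, C1qa, C1qb, C1qc and Adgre1) and 1 lower (Csf1r), against 5.29% and 5.08% of all genes. Their median log2 fold change was 1.47. In CPM the groups did not overlap in 3 higher markers and 1 lower, against 9.49% and 9.63% of all genes. The sum of the 12 listed was 224 to 383 CPM with PBS and 287, 238 and 673 CPM in metformin 1, 2 and 3. That sum, in which Lyz2 was the most abundant gene, was high in metformin 3 alone. No marker of these lists was at 0 in all 6 libraries. In bulk RNA, fewer cells of a type and less RNA per cell cannot be told apart. The part of these markers in the values of Pik3ip1, Inpp4b and Sgk1 was not tested.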

How the data were processed

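Per the labels' protocols, total RNA of liver NK cells was purified with an RNeasy kit and made into SMART-seq mRNA libraries. DRAGEN (version not stated) and both GRCm39 and mm10 appear in the submitters' processing notes, without saying which served for what. The authors deposited estimated counts per gene, which are not whole and not normalized, and TPM values, which correct for gene length and depth. The sources used here do not say how reads were assigned or whether strand was used. None of the 9 members has its GENCODE M21 (GRCm38) position in the table (0 of 9), so gene coordinates are the table's and promoter coordinates GRCm38.p6. Columns of values left without a sample numbered 0.

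Estimated counts were rounded and tested over all genes with edgeR 4.0.16 (glmQLFit and glmQLFTest, TMM, filterByExpr, no covariate) in R 4.3.3, with Benjamini-Hochberg adjustment at 0.05; the filter left 15527 genes. SE and 95% intervals come from that fit. Other settings were DESeq2 1.42.0, limma 3.58.1 (voom, and log2 TPM with pseudocounts of 1 and 0.1), other scalings and filters, protein-coding genes only, a lowess offset on gene length (span 0.3), the replicate number as a block, and each library left out. The tests were tried on simulated data. Named genes were the 9 members, the 20 listed pathway genes with the smallest p, and the relatives of PI3K catalytic, AKT, SGK and FOXO members, 31 in all. A few listed genes are not reported here and were left out of the lists and sums. The members and lists were chosen with earlier results of these data known. Reads come from PCR without molecular identifiers. Pairs within a group gave a chi-square per degree of freedom of 14.7 to 63.6, more than the same library sequenced again would give. This does not show whether libraries come from separate RNA or separate animals.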

Additional observations from a re-analysis of the deposited data

How the results depend on the processing

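Pik3ip1, Inpp4b and Sgk1 kept their direction in all 18 other settings and were called in DESeq2 alone. Of 162 values of the 9 members over these settings, 4 turned sign: Inpp5d (-0.29 to 0.11 with a library left out) and Pik3cd (-0.38 to 0.012) without metformin 3, and Foxo1 without metformin 2 (-0.11 to 0.010 with a library left out) and with the length trend removed (0.11). Of 356 values of the other named genes that were tested with all 6 libraries 0 did. Sgk2, tested in 5 other settings alone, lay between -0.63 and 0.092. Genes called over all genes numbered 299 in DESeq2, 1 without a filter, 1 with the length trend removed, and 0 to 1 with a library left out. With the replicate number as a block 3 genes were called, none of them a member, and Akt1 had an unadjusted p of 0.0642. Deviations of same-numbered libraries correlated at 0.171, 0.0757 and 0.172, each the highest value of its metformin library. Differently numbered libraries correlated at -0.243 to 0.0764, and PBS 2 with metformin 1 gave the highest of these. The labels name no pairs, so the numbers were not taken as pairs in the main fit. These correlations do not settle whether the libraries are paired. Members at an unadjusted p under 0.05 numbered 3 to 5. The ratio of metformin to PBS was 1.40 on TPM and 1.56 on CPM for Pik3ip1, and 1.09 and 1.22 for Foxo3. On TPM the median over all genes moved to -0.091 with a pseudocount of 1 and to -0.10 with 0.1. With a library left out the log2 difference of the marker sums was 0.37 to 0.96 for T cells, -1.10 to -0.63 for dividing cells, -0.23 to 0.66 for B cells, -0.23 to 0.64 for monocytes and macrophages, -0.012 to 0.90 for neutrophils, -0.45 to 0.95 for hepatocytes and -0.42 to 0.35 for liver endothelium.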
